A study of Rattus norvegicus with 4 samples.

Results

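Chemokine receptor genes were examined in NR8383 cells, a rat alveolar macrophage line that was derived from a normal rat by lung lavage and grows as a mix of adherent and floating cells. The receptors were the 9 genes Ccr1, Ccr2, Ccr3, Ccr7, Cx3cr1, Cxcr2, Cxcr3, Cxcr4 and Ackr3, of 16581 named genes with a probe on the array. They were chosen as members of the chemokine receptor family, and each was measured by 1 probe whose accession matched the rat RefSeq gene. All cells analysed here had received carbon black, in the form of the nanoparticle powder named Printex90, at 0.9 cm2/cm2 for 4 h, and the labels place them at 20 passages. The 4 samples, which the series design calls biological replicates, formed this 1 group, each on its own 1-colour Agilent array, and the incubations without particles that the series design names were not analysed here. The study's question was the effect of carbon black on transcript levels, but with 1 group no fold change between conditions could be computed. What follows describes signal in exposed cells and its variation from replicate to replicate. Nothing in the labels or the design says whether the samples were separate cultures, so the spread between them may be partly technical. The p-values ask only whether that spread exceeds the one fitted over the genes tested.

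Chemokine receptors are G protein-coupled receptors of leukocytes that bind small secreted chemokines and steer cell movement along their gradients. Most couple to inhibitory G proteins, which activate phosphoinositide 3-kinase gamma and phospholipase C beta, and receptor kinases and arrestins then switch the receptor off and drive its internalisation. Atypical receptors such as Ackr3 bind chemokines and recruit arrestin without this G protein signalling. On cells of the monocyte and macrophage lineage, Ccr1, Ccr2 and Cx3cr1 are the classical receptors, whereas Ccr3 is typical of eosinophils, Ccr7 of mature dendritic cells and naive T cells, Cxcr2 of neutrophils and Cxcr3 of activated T and natural killer cells.

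Promoter windows are shown for the 2 receptor genes that had signal in these cells, Ccr1 and Cx3cr1, and for both receptors of the chemokine Cxcl12, Cxcr4 and Ackr3, which had none. Each runs from 250 bases before to 50 bases after the annotated gene start in RefSeq, on build GRCr8, 5′ to 3′ on the gene's strand. Capitals mark every match, on either strand, to 3 motifs. The PU box, bound by the myeloid factor PU.1, was searched as GAGGAA. The TATA box was searched as TATAAA. The GC box was searched as GGGCGG. Ccr1 lies at chr8:132439217-132439516 on the minus strand, Cx3cr1 at chr8:128677017-128677316 on the minus strand, Cxcr4 at chr13:42634239-42634538 on the minus strand and Ackr3 at chr9:98247104-98247403 on the plus strand.
Ccr1: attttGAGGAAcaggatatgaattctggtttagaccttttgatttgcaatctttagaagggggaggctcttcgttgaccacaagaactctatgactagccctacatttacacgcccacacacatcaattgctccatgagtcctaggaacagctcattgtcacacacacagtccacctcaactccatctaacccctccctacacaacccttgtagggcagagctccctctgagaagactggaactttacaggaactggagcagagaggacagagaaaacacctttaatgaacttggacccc
Cx3cr1: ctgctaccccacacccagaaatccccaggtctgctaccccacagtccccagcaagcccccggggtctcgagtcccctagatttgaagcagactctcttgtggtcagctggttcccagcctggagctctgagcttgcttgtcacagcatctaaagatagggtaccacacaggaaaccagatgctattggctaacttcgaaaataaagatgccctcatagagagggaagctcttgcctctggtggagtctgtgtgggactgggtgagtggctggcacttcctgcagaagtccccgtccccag
Cxcr4: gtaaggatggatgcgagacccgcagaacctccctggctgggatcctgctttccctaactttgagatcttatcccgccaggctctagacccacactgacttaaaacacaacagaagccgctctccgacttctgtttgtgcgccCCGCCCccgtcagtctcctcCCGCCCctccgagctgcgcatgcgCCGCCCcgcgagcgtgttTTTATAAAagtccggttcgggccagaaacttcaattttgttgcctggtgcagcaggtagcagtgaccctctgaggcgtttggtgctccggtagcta
Ackr3: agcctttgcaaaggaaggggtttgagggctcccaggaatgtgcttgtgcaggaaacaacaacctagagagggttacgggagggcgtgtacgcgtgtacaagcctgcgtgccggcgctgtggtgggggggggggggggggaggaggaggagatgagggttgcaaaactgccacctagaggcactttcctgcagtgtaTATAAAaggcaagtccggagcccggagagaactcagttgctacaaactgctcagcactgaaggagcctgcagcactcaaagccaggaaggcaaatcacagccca
The Ccr1 window held 1 PU box match and neither of the other motifs, and the Cx3cr1 window held no match to any of them. The Cxcr4 window held 3 GC box matches and 2 TATA box matches, one per strand and overlapping by 4 bases, and the Ackr3 window held 1 TATA box match. RefSeq windows were found for 8 of the 9 receptors. In the other four, the Ccr3 window held 1 PU box match, and those of Ccr2, Cxcr2 and Cxcr3 held no match. Over all 33469 RefSeq windows of 300 bases, 27.6% held the PU box letters, 14.2% the TATA box letters and 33.1% the GC box letters, so these are common words, and a match is not evidence of a bound site. The Cxcr4 window had 20 CpG dinucleotides, against 2 for Ccr1, 4 for Cx3cr1 and 9 for Ackr3 and a median of 7 over all windows.

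On each array 37.5% to 40.9% of probes were marked well above background by the scanner software, and no spot was saturated. The brightest negative control spots were brighter on replicate 1. The 99th percentile of their processed intensity was 27.1 there, against 4.95 to 7.40 on the other arrays. A level is the log2 processed intensity of a probe minus the 75th percentile of its array, so that 0 is that percentile. Levels of different genes come from different probes and are not compared with each other.

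Of the 9 receptor genes, Ccr1 and Cx3cr1 gave signal well above background on every one of the 4 arrays, and the other seven on no array. Among all named genes, 47.9% gave such signal on every array and 44% on none. The receptor count of 2 of 9, or 22.2%, was thus below the share of all named genes, but with 9 genes it was not tested.

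Ccr1, a receptor for Ccl3, Ccl5 and related inflammatory chemokines, had processed intensities of 482, 596, 339.5 and 406 on replicates 1, 2, 3 and 4. After scaling, its levels were 2.14, 2.67, 2.41 and 2.67 on the same arrays, a mean of 2.47 ± 0.25 (SD, n = 4). Replicates 2 and 4 were almost level, and replicate 1 was the lowest. The highest array exceeded the lowest by 0.53 log2 units, which is 1.44-fold. The Ccr1 spot was between 21.6 and 52.7 times as bright as the dimmest spot that the software marked as well above background on the same array, and 0 of the 308 negative control spots on any array reached it. The software's own error estimate for this spot was 10.0% of its intensity on every array.

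Cx3cr1, the receptor for the membrane-bound chemokine fractalkine (Cx3cl1) and a marker of patrolling monocytes and tissue macrophages, had processed intensities of 198, 186, 155 and 148 on replicates 1 to 4. Its levels were 0.86, 0.99, 1.28 and 1.22, a mean of 1.09 ± 0.20 (SD, n = 4). The unscaled intensity was highest on replicate 1, and the level there was the lowest, because the 75th percentile of that array was the highest of the 4. Replicates 3 and 4 lay close together above replicates 1 and 2, and the range of 0.42 log2 units is 1.34-fold. The spot was between 8.88 and 16.4 times as bright as the dimmest spot marked well above background, and again 0 of 308 negative controls reached it.

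**Figure D1:**
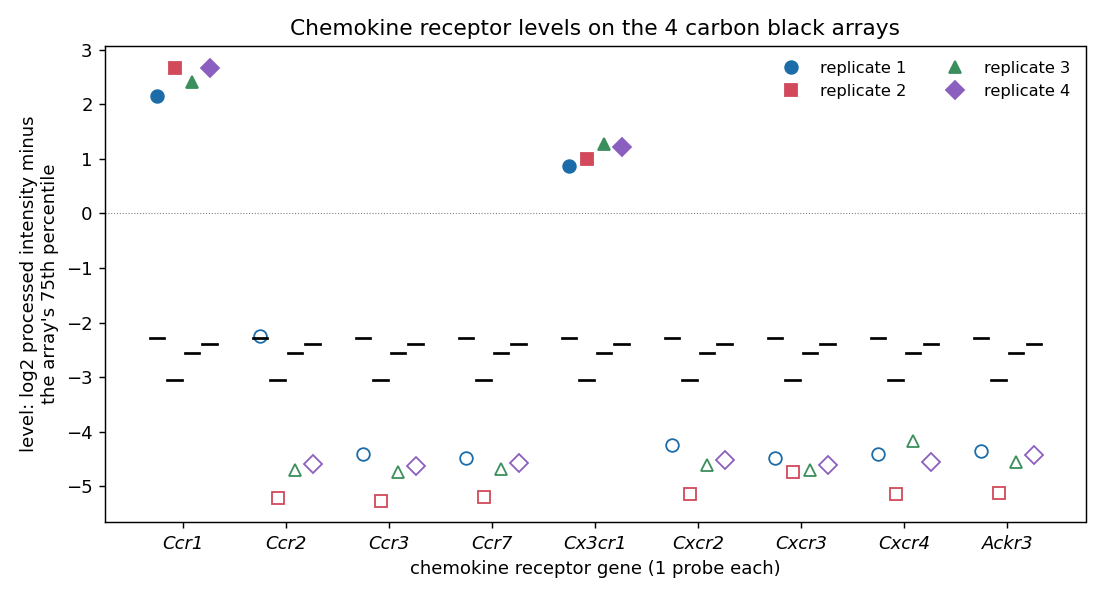
Levels of the 9 chemokine receptor genes (log2 processed intensity minus the 75th percentile of the array) on each of the 4 arrays, with filled symbols for a probe well above background and open symbols for one that was not. Short black bars give, for each array, the level of the dimmest spot marked well above background. Ccr1 at 2.14 to 2.67 and Cx3cr1 at 0.86 to 1.28 lie above the bars on all arrays, and the open symbols of the other genes lie below them, except Ccr2 on replicate 1.

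For the 7 receptors without signal only an approximate detection limit can be given. The dimmest spot marked well above background had a processed intensity of 22.3, 11.3, 10.8 and 12.1 on replicates 1 to 4, which as a level is -2.29, -3.05, -2.56 and -2.40. Of their 28 values, 25 were floor values that the software had put in place of a signal not above its error, between 4.88 and 5.79 on replicate 1 and between 2.38 and 2.97 on the other arrays. Such floor values have no order, and differences between them say nothing about the genes. The dimmest marked spot is not an upper limit for a gene without the mark. A brighter spot could also lack the mark, as that of Ccr2 did on replicate 1. Expression giving less signal than the mark requires was not detectable at this signal over background.

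Ccr2, the receptor for monocyte chemoattractant protein 1 (Ccl2) that brings monocytes out of the bone marrow, came closest to the mark in intensity, on replicate 1. Its processed intensity was 23.1 there and 2.52, 2.46 and 2.64 on replicates 2, 3 and 4, where it was at the floor. Replicate 1 stood apart from the other three arrays. The value of 23.1 was 1.04 times the dimmest spot marked well above background on that array, but the spot itself did not get the mark, and 8 of 308 negative control spots on replicate 1 had a background-subtracted intensity at least as high. The local background of the Ccr2 spot was 41 on that array, against 31 to 32 on the others. With another background correction (normexp), the SD of the Ccr2 level was 0.17, against 1.33 in the main setting. Fewer negative controls, 6 of 308, reached the Cxcr4 spot on replicate 3.

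Ccr3, the eotaxin receptor, had background-subtracted intensities of -4.60, 2.31, -1.96 and -2.18 on replicates 1 to 4. Ccr7, which guides mature dendritic cells to lymph nodes, had -2.22, -4.66, -0.29 and -4.50. Both were at the floor on every array. Between 18 and 206 of 308 negative controls were at least as bright as the Ccr3 spot, and between 72 and 290 as the Ccr7 spot.

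Cxcr2, the neutrophil receptor for Cxcl1 and Cxcl2, had background-subtracted intensities of -0.28, -2.28, 2.40 and 0.63 on replicates 1 to 4 and was at the floor on all arrays. Cxcr3, the receptor for the interferon-induced chemokines Cxcl9, Cxcl10 and Cxcl11, had 0.57, 3.48, 1.78 and 1.64. On replicate 2 the software called the Cxcr3 spot positive and significant, at a processed intensity of 3.52, but that was 0.31 times the dimmest spot marked well above background, and 10 of 308 negative controls were at least as bright. The other three arrays had Cxcr3 at the floor.

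Cxcr4, the Cxcl12 receptor that retains blood-forming cells in the bone marrow, had background-subtracted intensities of -1.49, -2.05, 3.39 and 2.08 on replicates 1 to 4. It was called positive and significant on replicate 3 only, at a processed intensity of 3.52, where 6 of 308 negative controls were at least as bright. Ackr3, the atypical scavenging receptor for Cxcl12 and Cxcl11, had -10.7, -5.55, -4.84 and -7.16. These lay near the bottom of the negative controls on each array, since between 299 and 308 of the 308 negative controls were at least as bright.

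**Figure D2:**
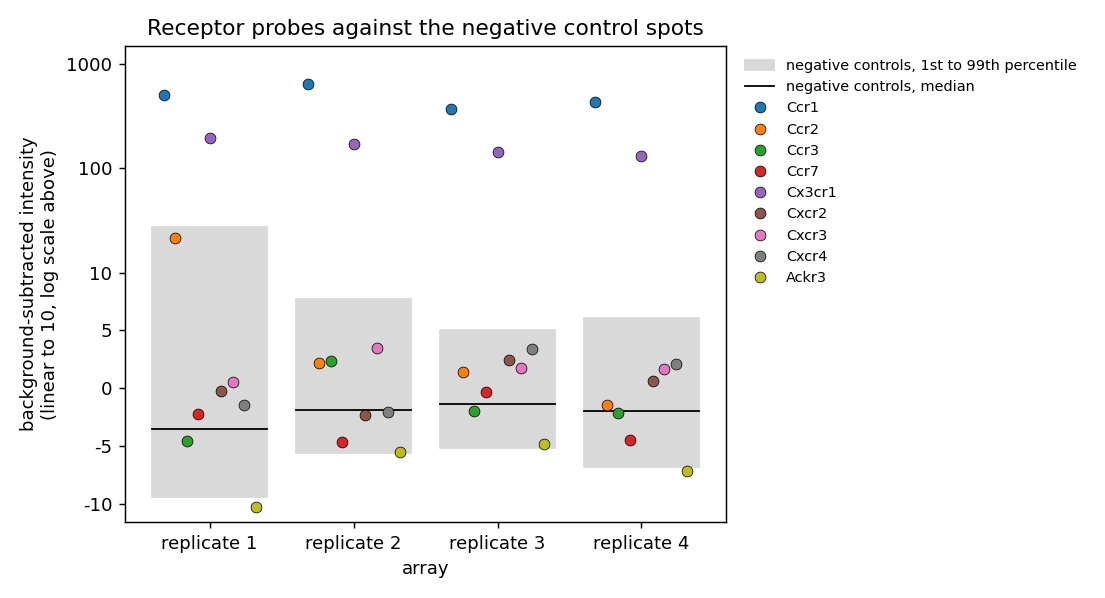
Background-subtracted intensity of the 9 receptor probes on each array (vertical axis linear up to 10 and logarithmic above), with the 1st to 99th percentile of the 308 negative control spots in grey and their median as a line. Ccr1 and Cx3cr1 lie above the grey band on every array, and the other probes lie within it or, as Ackr3 on replicates 1 and 4, below it, with Ccr2 on replicate 1 at 21.3 in its upper part.

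The spread of Ccr1 and Cx3cr1 between replicates was ranked among tested genes of any brightness and set against the spread fitted for their level. Such a comparison between replicates is the only one that 1 group allows. Ccr1 had an SD of 0.25 log2 units, larger than in 75.2% of the 14916 genes tested and above the 0.14 fitted for its level. Cx3cr1 had an SD of 0.20, larger than in 62.1% of tested genes, with 0.16 fitted for its level. Neither passed the one-sided test of excess variance (adjusted p = 0.987 for both, limma, unadjusted p = 0.102 for Ccr1 and 0.306 for Cx3cr1), and over 12 alternative settings the adjusted p lay between 0.631 and 0.994 for Ccr1 and between 0.933 and 0.995 for Cx3cr1. Of all genes tested, 70 passed, or 0.469%, and this count lay between 0 and 357 over the same 12 settings. Missing the threshold does not show a small spread. The SD of Ccr1 was 0.15 without replicate 1, and that of Cx3cr1 was 0.050 with another background correction (normexp). Both genes were lowest on replicate 1 under the 5 ways of background correction and scaling that kept all arrays, although for Cx3cr1 replicates 1 and 2 were then as close as -2.610 and -2.608 with the 75th percentile taken over detected probes.

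**Figure D3:**
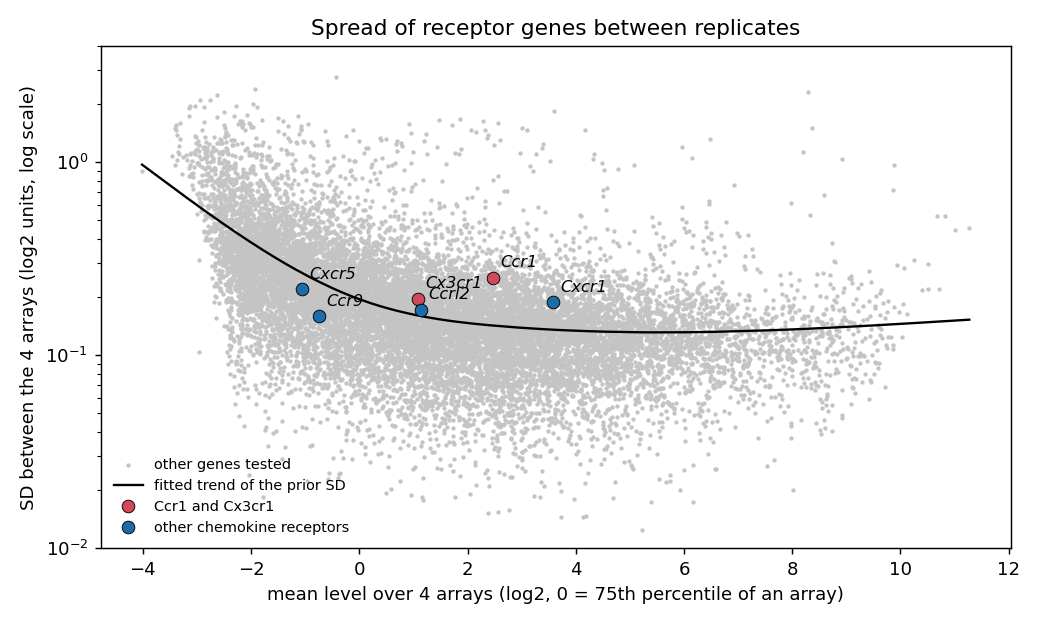
SD between the 4 arrays (log2 units, logarithmic axis) against the mean level of the 14916 genes tested, with the fitted trend as a line, Ccr1 and Cx3cr1 in red and 4 other chemokine receptors with signal in blue. Ccr1 (SD 0.25) and Cx3cr1 (SD 0.20) lie above the line and within the cloud of other genes.

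The ligands of each receptor were then set beside it. Of 22 chemokines paired with the 9 receptors, 21 were measured. Of these, 9 (42.9%) gave signal on every array, close to the 47.9% of all named genes, 1 gave it on 1 array and 11 gave none. For Ccr1, all 5 paired ligands had signal on all arrays. The macrophage inflammatory protein gene Ccl3 had a level of 7.19 ± 0.14 (SD, n = 4), and Ccl6 and Ccl9, which are rodent chemokines of myeloid cells, had 7.56 ± 0.16 and 6.48 ± 0.037. Ccl5 and Ccl7 had levels of -1.13 ± 0.39 and -0.93 ± 0.10. For Cx3cr1 the reverse was seen, as its only ligand gene, Cx3cl1, gave no signal.

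Of the 7 receptors without signal, 5 had at least 1 paired ligand with signal on all arrays. Each has 2 to 4 measured ligands, some of them shared, and 47.9% of all named genes pass the same mark, so that nothing particular to these receptors is read from this count. The Ccr2 ligand Ccl2 had a level of 5.85 ± 0.098 (SD, n = 4), with 5.96, 5.73, 5.90 and 5.83 on replicates 1 to 4. Ccl7, which Ccr2 shares with Ccr1, also had signal on all arrays, and the Ccr2 ligand Ccl12 had none on any array. The Cxcr2 ligand Cxcl2 had a level of 2.33 ± 0.090, while Cxcl1 and Ppbp had no signal and Cxcl3 was not matched to a probe. Cxcl6, another Cxcr2 ligand, was well above background on replicate 4 only, with a level of -0.49 there. The Cxcr3 ligand Cxcl10 had a level of 3.61 ± 0.19. Cxcl9 lacked the mark on every array, although its level on replicate 4, -2.35, was above the -2.40 of the dimmest marked spot. Cxcl11 had no signal on any array. Cxcl12, shared by Cxcr4 and Ackr3, had none either, and the cytokine Mif, which also binds Cxcr4, had 7.83 ± 0.12. For Ccr3 the ligands with signal were again shared with Ccr1, Ccl5 and Ccl7, and the eotaxin genes Ccl11 and Ccl24 had none. The Ccr7 ligands Ccl19 and Ccl21 had no signal on any array, so that neither side of that pair was detected.

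**Figure D4:**
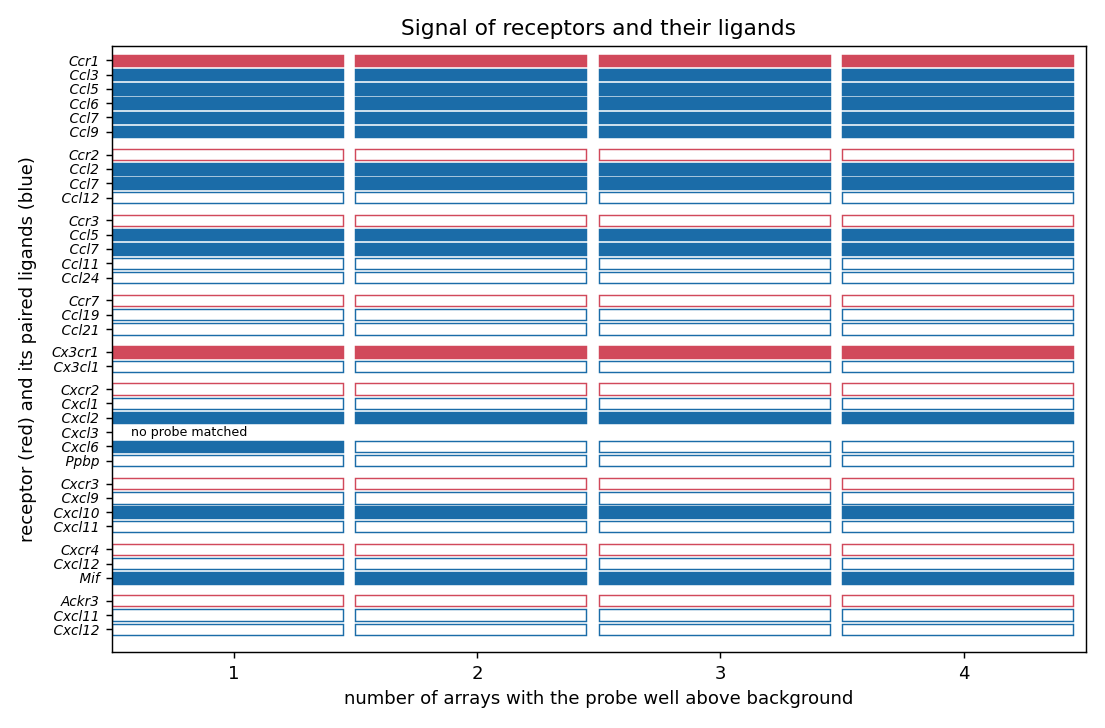
Number of arrays (0 to 4 filled boxes) on which each of the 9 receptors (red) and each of its paired ligands (blue) was well above background. Ccr1 and its 5 ligands fill all boxes, Cx3cr1 is filled and Cx3cl1 empty, and 5 of the empty receptors have at least 1 ligand with 4 filled boxes.

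Among 10 other chemokine receptor genes compared here, 4 gave signal on every array. These were Ccr9, Cxcr1, Cxcr5 and the atypical receptor Ccrl2, and Ccr4, Ccr6, Ccr10, Cxcr6, Xcr1 and Ackr2 had no signal on any array. Cxcr1, the close relative of Cxcr2, had levels of 3.32, 3.77, 3.59 and 3.62 on replicates 1 to 4, and Ccrl2 had 0.96, 1.15, 1.11 and 1.37. Ccr9 and Cxcr5 each rested on 1 of 2 probes, with mean levels of -0.74 ± 0.16 and -1.06 ± 0.22 (SD, n = 4). Counting only genes with all of their probes well above background left 2 of these 4, Cxcr1 and Ccrl2, and did not alter the call for Ccr1 or Cx3cr1, which have 1 probe each. With the 9 receptors included, 6 of these 19 chemokine receptor genes (31.6%) had signal on all arrays, against 47.9% of all named genes, a difference that was not tested.

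Some receptors with signal have receptors without signal as neighbours in the genome. On chromosome 8 of the RefSeq annotation, Ccr9, Cxcr6, Xcr1, Ccr1, Ccr3 and Ccr2 follow each other in this order with few other genes between them. Of these 6 genes, Ccr9 and Ccr1 had signal on all arrays and the other 4 on none. Ccr1l1, a Ccr1-like gene between Ccr3 and Ccr2, also had none. Ccr9 had 2 probes, and the dimmer of them was marked on no array, so that requiring all probes left only Ccr1. Of all named genes, 47.9% had signal on every array and 44% on none, and the difference from these neighbours was not tested. Cx3cr1 lies elsewhere on chromosome 8, and Cxcr2 lies beside Cxcr1 on chromosome 9, where Cxcr1 had signal and Cxcr2 had not.

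Most of the genes listed for receptor signalling were detected. Of 23 measured G protein and effector genes, 18 (78.3%) gave signal on every array, against 47.9% of all named genes. The inhibitory alpha subunit genes Gnai2 and Gnai3 had levels of 8.40 ± 0.098 and 3.39 ± 0.096 (SD, n = 4), and the beta subunit gene Gnb2 had 8.52 ± 0.039. Pik3cg, the catalytic subunit of the phosphoinositide 3-kinase that these receptors activate, had -1.55 ± 0.16. Gnai1, Gna13, Gng2 and Pik3cd had no signal on any array, and Gnaq had signal on 2. Of 17 genes of receptor desensitisation and trafficking, 13 (76.5%) were detected on all arrays. Among them were the receptor kinase genes Grk2 at 3.69 ± 0.15 and Grk6 at 3.58 ± 0.17. The arrestin genes Arrb2, at 3.43 ± 0.10, and Arrb1, at 1.70 ± 0.14 for the brightest of its 3 probes, were also among them. Another Arrb1 probe was well above background on no array. Of 6 measured genes of receptor maturation, 5 (83.3%) were detected on all arrays. They include the tyrosine sulfotransferases Tpst1 and Tpst2, which modify the ligand-binding ends of chemokine receptors. With all probes required, 12 of 17 and 4 of 6 were left in the desensitisation and maturation lists, and the G protein list kept 18. These lists were chosen with earlier results of these data known. Their shares were not tested against that of all named genes, and nothing particular to chemokine receptors is read from them. Of 10 other chemoattractant receptors, 4 (40%) had signal on all arrays, near the 47.9% of all named genes. These were the complement receptors C5ar1 (1.71 ± 0.20) and C5ar2 (1.57 ± 0.16), Ptafr and P2ry12. C3ar1 had signal on 1 array, and Fpr1, Cmklr1, Ltb4r, S1pr1 and Gpr183 on none.

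Markers of the cell types in which the undetected receptors are best known were set beside them. Of 23 measured alveolar macrophage genes, 19 (82.6%) had signal on all arrays, including Cd68, Ptprc, Spi1 and Pparg, against 47.9% of all named genes. Cebpa, Adgre1, Marco and Car4 had none. Of 9 measured granulocyte and mast cell markers, Cebpe had signal on all arrays and S100a8 on 2. The rest, including S100a9, Elane and the eosinophil genes Epx and Prg2, had signal on none, beside Cxcr2 and Ccr3 without signal. With the weaker mark of a positive and significant spot, 3 of these 9 were counted on all arrays. Cxcr1, the close relative of Cxcr2, had signal on every array, so the receptors did not all go with these markers. Of 10 measured dendritic cell markers, Cd83 was detected on all arrays, Clec9a on 3 and Cd80 on 1. Zbtb46, Fscn1, Cd74, Ciita, RT1-Da, RT1-Ba and Cd86 were detected on none, beside Ccr7 without signal. The count of 1 on all arrays was 2 without replicate 1 and 3 with the weaker mark. On no array were 7 of these 10 detected, and 7 of the 9 granulocyte and mast cell markers. Of all named genes, 44% gave signal on no array, and the difference was not tested. Of 11 T and NK cell markers, Cd3d, Cd4, Gzmb, Nkg7 and Lck gave signal on every array, and Ncr1, Cd2, Cd5, Cd8a, Cd3g and Cd3e on none, beside Cxcr3 without signal. These 5 (45.5%) were close to the 47.9% of all named genes, and 3 were left when all probes were required, since Cd4 and Gzmb each rested on 1 of 2 probes. In bulk RNA, few cells with a transcript and a low amount in every cell cannot be told apart.

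**Figure D5:**
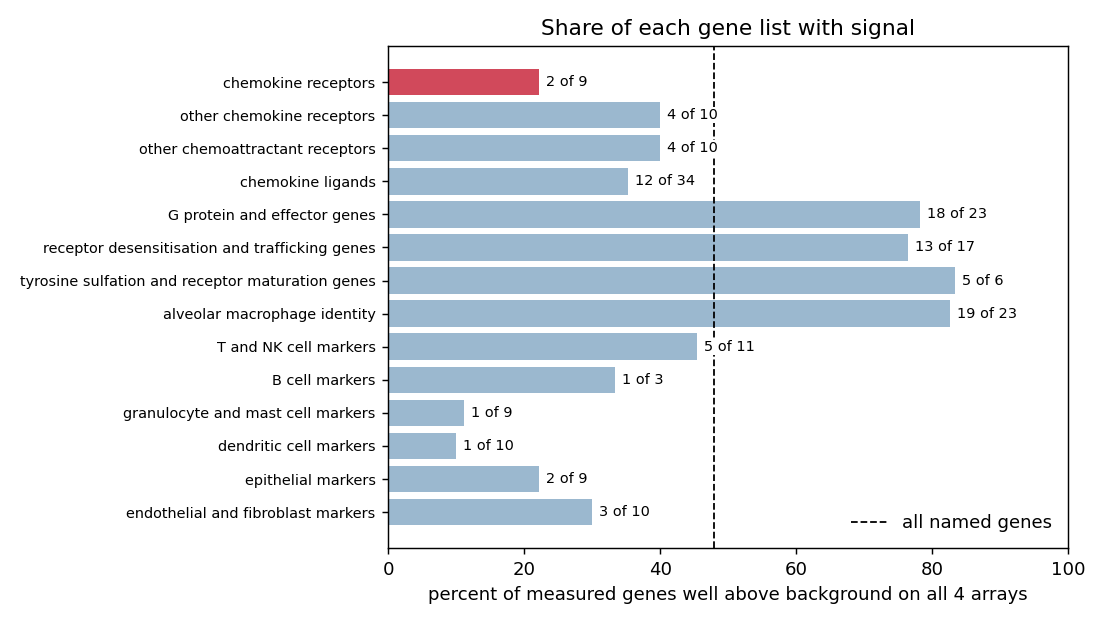
Percent of measured genes in each list with signal well above background on every array, with the counts beside the bars and the 47.9% of all named genes as a dashed line. The chemokine receptors, at 22.2%, lie left of the line, and the G protein, desensitisation, maturation and alveolar macrophage lists lie right of it.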

How the data were processed

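The deposited files hold, per the file headers, the intensity of each spot as computed by Agilent Feature Extraction 11.0.1.1 from a 1-colour scan, background-subtracted and detrended within the array and not normalized between arrays. They also hold the software's marks for spots above background. Per the labels, 100 ng of RNA with an integrity number above 7.5 was labelled with Cy3. The 4 arrays share 1 slide and 1 scan, with each replicate at its own place on it.

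Control spots and non-uniform spots were left out, the spots of each probe were averaged as log2 intensity, and the 75th percentile of the 45598 probes on that array was taken off. A probe was well above background if at least 50% of its spots carried that mark. Accessions without version named 21109 probes (46.3%) through RefSeq (GRCr8, used for names and gene order). The brightest probe stood for a gene, and detection took any probe. Replicates correlated at 0.981 to 0.993 over tested genes.

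Excess variance was tested with limma 3.58.1 in R 4.3.3: an intercept was fitted with lmFit for the 14916 genes with a probe well above background on at least 2 arrays, and the residual variance was set against the trended prior of squeezeVar by a one-sided F test, adjusted by Benjamini-Hochberg over all genes tested, with a threshold of 0.05. The 12 probes without a value on some array were left out of it. The test was tested on simulated data. Planned normexp correction on mean signals used median signals, the column analysed here. The receptors, the lists and the pairs were chosen with earlier results of these data known. All 9 receptors were named, and of other lists the paired ligands, the other chemokine receptors except 1 that is not reported here, up to 6 detected members of a list and the members behind small counts.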

Additional observations from a re-analysis of the deposited data

Results flagged for a closer look

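Of 63 genes checked, which were the 9 receptors and the named genes of the other lists with signal on all arrays, 2 had 1 array far from the other three. Chance gives about 1 in 20, and 2 of 63 is no more than that. Among the receptors the check bears only on Ccr1 and Cx3cr1, since the others were at or near the floor. The receptor kinase gene Grk6, which phosphorylates chemokine receptors, had a level of 3.32 on replicate 1 against 3.67, 3.70 and 3.64 on replicates 2, 3 and 4. The granulocyte transcription factor gene Cebpe had 3.07 on replicate 2 against 2.92, 2.91 and 2.91 on the other arrays. Neither passed the variance test (adjusted p = 0.987 for Grk6 and 0.991 for Cebpe, limma).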

How the results depend on the processing

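The calls for the receptors did not change. Under the weaker mark of a positive and significant spot, 2 of 9 were again counted on all arrays. Requiring all probes or leaving out 1 replicate could not change this count. Each receptor had 1 probe, and it was marked on all arrays or on none. Under 12 alternatives 0 receptors passed the variance test (limma). An unadjusted p under 0.05 was reached only with dim probes kept, by Ccr1 (adjusted p = 0.631, limma) and by Ccr2 (adjusted p = 0.389, limma), whose values were floor values on 3 arrays. The count of all genes past that test, 70, did change. It was 0 with the 75th percentile over detected probes, 1 with that over all spots, 1 with quantile normalization, 236 with normexp, 357 with dim probes kept, 207 with a robust prior and 0 with a prior without trend, and it lay between 27 and 161 when 1 replicate was left out (27 without replicate 2, 161 without replicate 3, 43 without replicate 4). Where it was 0, 721 (percentile over detected probes) and 897 (prior without trend) of 14916 genes tested had an unadjusted p under 0.05 (limma). In the main setting 755 of 14916 had one. The cause was not tested. The zero of the scale depends on the scaling: with the percentile over all spots the mean of each gene over the 4 arrays fell by 2.36, to 0.12 for Ccr1 and -1.27 for Cx3cr1, and with that over detected probes by 3.52. The 4 other chemokine receptors with signal became 2 when all probes were required, and counts in small marker lists moved too: T and NK cell markers from 5 to 3 with all probes, granulocyte and mast cell markers from 1 to 3 with the weaker mark, and dendritic cell markers from 1 to 3 with that mark and to 2 without replicate 1. Of 34 measured chemokine ligand genes, which include the paired ones, 12 were counted on all arrays, and 18 with the weaker mark. No paired analysis was possible because all samples belong to 1 group. The upper range of the negative controls, which was highest on replicate 1, limits what can be said of the 7 receptors without signal.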
